A study of Arabidopsis thaliana with 6 samples.

Results

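CYP71B genes encode a subfamily of plant cytochrome P450 enzymes, and their transcripts were followed here in leaf trichomes of Arabidopsis thaliana, in wild type and in the gtl1-1 mutant. Members were the probe sets that the platform annotation maps to exactly 1 gene with a symbol starting with CYP71B, which gave 19 of the 13513 probe sets that name 1 gene. The cyclophilins CYP71 and CYP59 carry a similar symbol and were not counted. When the subfamily was picked, 5 of these genes were listed by name (CYP71B6, CYP71B22, CYP71B26, CYP71B28 and CYP71B29). The same symbol rule also finds CYP71B5 and CYP71B34, which lay above the same filter on dim probe sets, so all 7 are described together. The rule itself uses gene symbols, but the subfamily was selected with the genotype changes of its genes on these 6 arrays known, so their levels and changes are a description chosen from the same values. The p-values below are their rows in a fit over the whole array and support nothing beyond that.

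The series holds 6 Affymetrix arrays, 3 biological replicates of each genotype. Plants of both genotypes grew on plates with 1% sucrose under constant light at 22 °C, and at an age of 3 weeks the trichomes of the fifth and the sixth rosette leaf were pulled off with forceps. GTL1, a transcription factor of the trihelix family, is known to restrain the late growth of trichomes. Neither the nature of the gtl1-1 allele nor the ecotype is given in the sources used here, and the annotation assigned 0 probe sets to GTL1, so the genotypes rest on the labels.

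Cytochrome P450 enzymes are haem proteins of the endoplasmic reticulum that insert an oxygen atom into small molecules, with electrons from a reductase. In Arabidopsis the CYP71B subfamily is large and lies mostly in tandem arrays of neighbouring genes. CYP71B15 (PAD3) is known for the last steps of camalexin synthesis, and CYP71B6 converts indole-3-acetonitrile, a related indole compound, to indole-3-carboxylic acid and its aldehyde. CYP71B31 has been linked to the oxidation of the terpene alcohol linalool in flowers. No role is given here for the other members.

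The deposited values are log2 expression estimates between 2.14 and 15.5 over the whole table, with array medians of 5.48 to 5.57. Over all probe sets, Pearson's r between 2 arrays was 0.992 to 0.996 within a genotype and 0.989 to 0.993 between genotypes. A probe set of its own means here 1 that the annotation maps to that gene alone. The annotation leaves 8730 probe sets unnamed, so a gene without its own may still be on the array. The filter kept the 13682 probe sets that exceeded an array's 40th percentile, a value of 3.51 to 3.6, on at least 3 of the 6 arrays. Of 14 listed trichome markers 4 had a probe set of their own (TRY, GIS, SIM and TBR), and all 4 passed that filter, with a mean level of 8.90 to 9.25 on the wild-type arrays and 8.80 to 9.65 on the mutant arrays. One by one, GIS and TBR were higher on every mutant array than on any wild-type array, with log2 changes of 0.84 ± 0.20 and 0.34 ± 0.13 (SE, n = 3 per genotype), while TRY (-0.99 ± 0.50) and SIM (0.12 ± 0.23) overlapped, and limma called 0 of the 4 (adjusted p = 0.14, 0.294, 0.415 and 0.849). Of 10 listed mesophyll markers 5 had a probe set of their own, and their mean level was 11.94 to 12.65 in wild type and 11.89 to 12.16 in the mutant. Transcripts of photosynthetic genes were thus present on all 6 arrays. In such bulk RNA, fewer cells of a type and less RNA per cell cannot be told apart.

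Of the 19 CYP71B probe sets, 7 passed the filter and 12 did not. All 7 lay above the 40th percentile on each of the 6 arrays, and the 12 others lay below it on each. Just inside the filter, the lowest value was 4.13, for CYP71B26 on 1 mutant array, and just outside it the highest was 3.45, for CYP71B35. At CYP71B16, CYP71B21, CYP71B25, CYP71B31, CYP71B37 and CYP71B30P, all 6 arrays were within 0.01 log2 units of the array's lowest value. Of the remaining 6, CYP71B36 reached at most 2.24, the transcribed pseudogene CYP71B27 2.20, CYP71B38 2.62, CYP71B24 3.18 and CYP71B23 3.38. GCRMA compresses dim probe sets onto this floor, so no change was tested for the 12. Wild-type and mutant values of these genes overlapped within that dim range, as the plot of all 19 members shows.

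**Figure D1:**
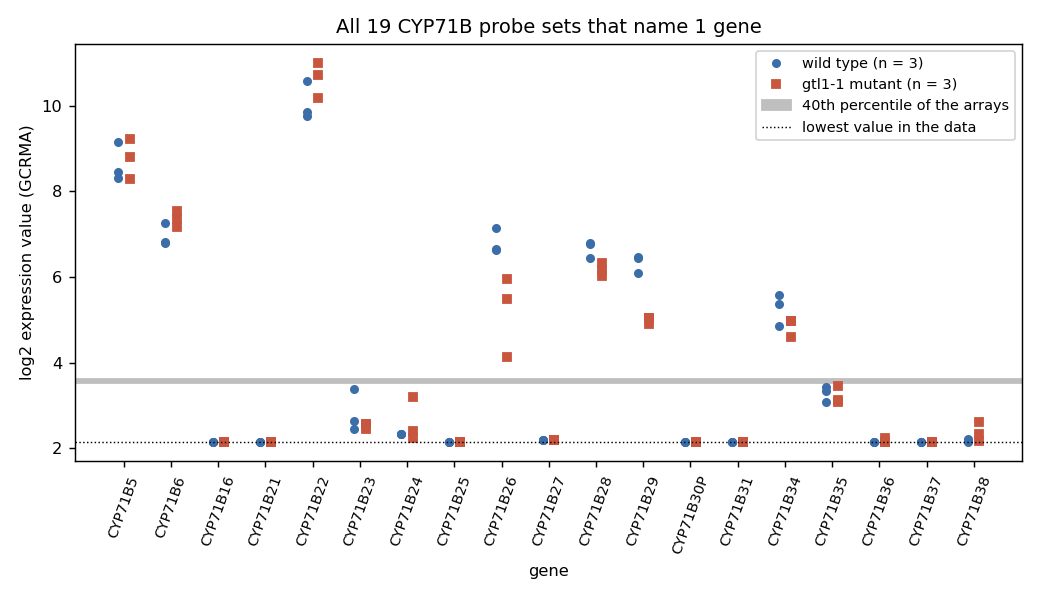
Log2 expression value (y axis) of the 19 CYP71B genes with a probe set of their own (x axis, in order of gene number), 1 point per array, circles for wild type and squares for the gtl1-1 mutant (3 arrays each). The 7 tested genes lie above the grey band that marks the 40th percentile of the arrays, and the other 12 lie between the floor of 2.14 (dotted line) and 3.45.

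CYP71B29 (AT1G13100) was the 1 tested member that passed the threshold, and it was lower in the mutant. Its log2 values were 6.09, 6.45 and 6.46 in wild type and 5.05, 5.05 and 4.90 in the mutant. Every mutant array was below every wild-type array, with a gap of 1.04 log2 units between the groups. The mean fell from 6.34 ± 0.21 to 5.0 ± 0.09 (SD, n = 3 per genotype), a log2 change of -1.34 ± 0.15 (SE) with a 95% interval from -1.68 to -0.99. That is a 2.53-fold lower level, with an interval of 1.99-fold to 3.21-fold. In limma's fit over all tested probe sets its adjusted p was 0.0124, and 39 of the 13682 had a p at least as small, itself included.

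Limma called 1 of the 7 tested members, against 126 of 13682 probe sets (0.921%) across the array, with 81 of these (0.592%) higher in the mutant and 45 (0.329%) lower. With arrays blocked by replicate number the array-wide count was 68, and CYP71B29 kept its call (limma adjusted p = 0.0494). When single arrays were left out, 3 of 6 fits called CYP71B29. It lost the call without wild type replicate 2, gtl1-1 mutant replicate 2 or gtl1-1 mutant replicate 3 (limma adjusted p = 0.0635, 0.0667 and 0.0901), and without the filter (0.101), while its change stayed between -1.46 and -1.27 in the 6 fits. The first and the second mutant array gave exactly the same value for CYP71B29, which also occurs within a genotype at 3.16% of the tested probe sets and narrows the spread behind the p.

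CYP71B28 (AT1G13090) is the direct neighbour of CYP71B29, with 0 genes between them in the order of the reference assembly TAIR10.1. Its log2 values were 6.81, 6.46 and 6.77 in wild type and 6.34, 6.18 and 6.03 in the mutant. The groups did not overlap, but the gap between them was only 0.12. The log2 change was -0.49 ± 0.15 (SE, n = 3 per genotype), or 1.41-fold lower with an interval of 1.1-fold to 1.81-fold, and it did not pass limma's threshold (adjusted p = 0.214). The log2 difference CYP71B28 minus CYP71B29 was 0.34 ± 0.36 on the wild-type arrays and 1.18 ± 0.09 on the mutant arrays (SD, n = 3). On wild-type arrays it ran from 0.0016 to 0.71 and on mutant arrays from 1.13 to 1.29, without overlap. The mutant mean was larger by 0.84 ± 0.21 (SE from the spread of these differences, not limma's). The exact two-sided permutation p of that difference was 0.1, the smallest that 3 against 3 arrays allow, and the adjusted p over all pairs of members was 0.175, so it did not pass.

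CYP71B26 (AT3G26290) had the most negative change of the 7 tested members, and also the widest spread. Its log2 values were 6.67, 7.15 and 6.64 in wild type and 4.13, 5.50 and 5.95 in the mutant. All mutant arrays were below all wild-type arrays, by at least 0.69, but the mutant arrays themselves ranged over more than that. The means were 6.82 ± 0.29 for wild type and 5.19 ± 0.95 for the mutant (SD, n = 3 per genotype). The log2 change was -1.63 ± 0.44 (SE), or 3.08-fold lower with a 95% interval from 1.5-fold to 6.34-fold, and the limma adjusted p was 0.175. Only 0.694% of the tested probe sets had a larger absolute change, and 97.5% had a lower residual SD than its 0.699. The change was -1.09 without gtl1-1 mutant replicate 1, the lowest array, and -2.0 without gtl1-1 mutant replicate 3.

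CYP71B34 (AT3G26300) lies beside CYP71B26 in the same tandem array, with 1 gene, the transcribed pseudogene CYP71B33, between them. Its log2 values were 4.85, 5.57 and 5.37 in wild type and 4.6, 4.98 and 4.97 in the mutant. The lowest wild-type array lay below 2 of the 3 mutant arrays, so the groups overlapped. The log2 change was -0.41 ± 0.21 (SE, n = 3 per genotype; 95% interval -0.92 to 0.09), and the limma adjusted p was 0.424. The log2 difference CYP71B26 minus CYP71B34 was 1.56 ± 0.27 on wild-type arrays and 0.34 ± 0.74 on mutant arrays (SD, n = 3), a difference in change of -1.21 ± 0.46 (SE) with an exact permutation p of 0.1 (adjusted p = 0.175).

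CYP71B6 (AT2G24180), the enzyme of indole-3-acetonitrile metabolism, lies apart from the tandem arrays. Its log2 values were 6.80, 6.81 and 7.26 in wild type and 7.55, 7.35 and 7.16 in the mutant. The groups overlapped only through wild type replicate 3 and gtl1-1 mutant replicate 3. The log2 change was 0.40 ± 0.18 (SE, n = 3 per genotype), with a 95% interval from -0.02 to 0.82, and it did not pass limma's threshold (adjusted p = 0.36).

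CYP71B22 (AT3G26200) gave log2 values of 9.87, 10.58 and 9.77 in wild type and 10.18, 10.73 and 11.01 in the mutant. Wild type replicate 2 lay above 1 mutant array, so the groups overlapped. The log2 change was 0.56 ± 0.29 (SE, n = 3 per genotype; 95% interval -0.11 to 1.23), with a limma adjusted p of 0.414. The difference between same-numbered arrays was 0.31, 0.14 and 1.23 for numbers 1, 2 and 3, so the mean was mostly set by number 3.

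CYP71B5 (AT3G53280) gave log2 values of 8.46, 8.32 and 9.16 in wild type and 9.22, 8.30 and 8.80 in the mutant, which overlapped over almost their whole range. Its log2 change was 0.12 ± 0.30 (SE, n = 3 per genotype), with a 95% interval from -0.58 to 0.83 that holds changes of either sign (limma adjusted p = 0.878). The sign turned to -0.04 without wild type replicate 2 and to -0.10 without gtl1-1 mutant replicate 1. CYP71B31 and CYP71B30P, which follow CYP71B5 in the gene order, were at the floor on all 6 arrays.

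**Figure D2:**
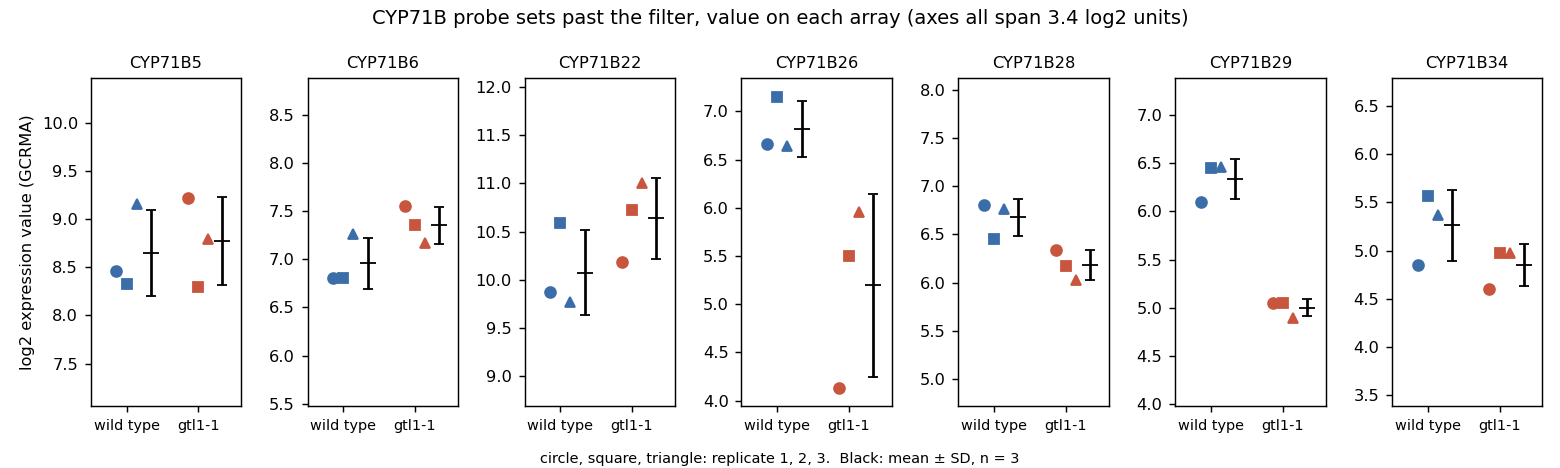
Log2 expression value (y axis) of the 7 tested CYP71B genes on each array, by genotype (x axis); symbols mark replicates 1, 2 and 3 and the black bars the mean ± SD (n = 3). The y axes start at different levels but each spans the same range, and the mutant and wild-type values stand apart for CYP71B26, CYP71B28 and CYP71B29.

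**Figure D3:**
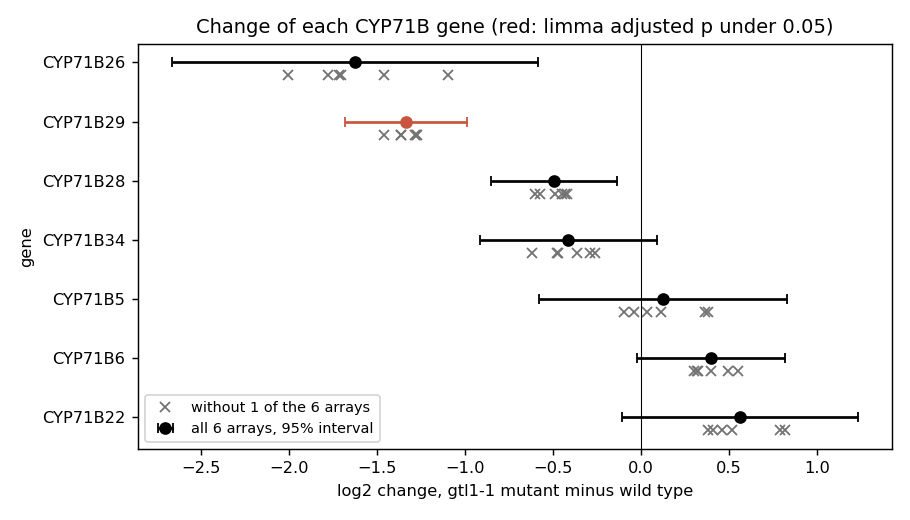
Log2 change (x axis, gtl1-1 mutant minus wild type) of the 7 tested CYP71B genes (y axis), with limma's 95% interval as bars and the change after leaving out each of the 6 arrays as crosses. The intervals of CYP71B26, CYP71B28 and CYP71B29 lie below 0, and CYP71B29, in red, is the gene with a limma adjusted p under 0.05.

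Among the 7 tested members, 4 had a negative and 3 a positive change, and the median log2 change was -0.41, against -0.0070 over all tested probe sets, of which 51.2% were negative. The median absolute change was 0.49 for the members and 0.19 for all tested probe sets. The genotypes stood apart without overlap at 3 members, all lower in the mutant, and at 20.9% of all tested probe sets (10.8% higher, 10.1% lower). An unadjusted limma p under 0.05 was reached by the same 3 members, CYP71B26, CYP71B28 and CYP71B29, and by 14.9% of all tested probe sets (7.8% higher, 7.15% lower). Since the subfamily was picked with results known, these counts are read no further.

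**Figure D4:**
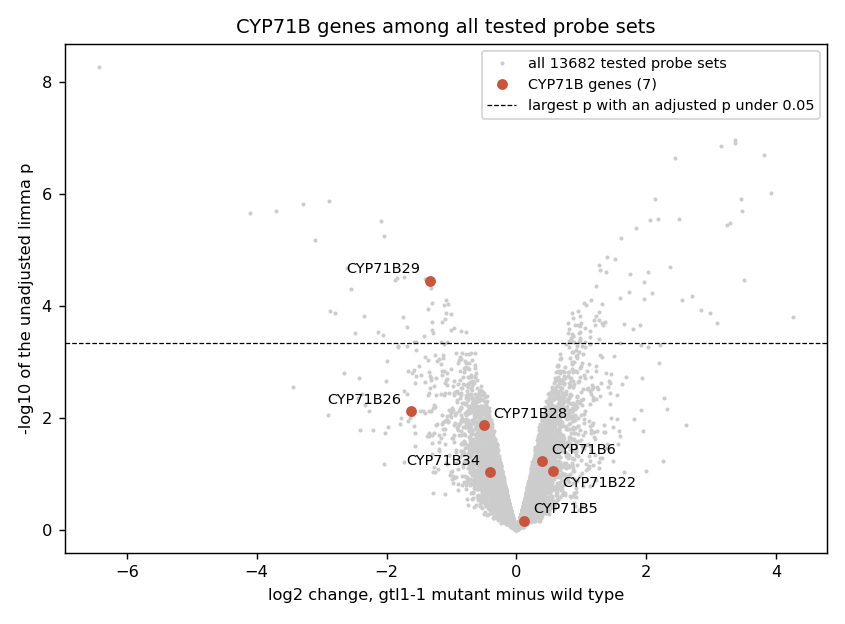
Log2 change (x axis, gtl1-1 mutant minus wild type) against the -log10 of the unadjusted limma p (y axis) for all 13682 tested probe sets in grey and the 7 tested CYP71B genes in red. CYP71B29 is the member above the dashed line, the largest p with an adjusted p under 0.05, and CYP71B26 lies farther left but lower because of its wide spread.

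The changes of the paralogs were compared with each other through the difference of their log2 values on the same array. This leaves out shifts that both probe sets share on an array. A constant inequality in the brightness of the probe sets stays in each such difference and drops out only between mutant and wild type. The levels of different probe sets were not ranked, since probes differ in how well they bind. Over the 21 pairs of tested members, the differences on mutant and wild-type arrays did not overlap in 12, against 22.6% of all pairs of tested probe sets. The 21 pairs share members, with CYP71B29 in 5 of the 12 and CYP71B6, CYP71B26 and CYP71B34 in 4 each. The count is thus not one of independent pairs and is read no further. Each of these 12 had an exact two-sided permutation p of 0.1, the smallest that the design allows, and a Benjamini-Hochberg adjusted p of 0.175 over the 21 pairs, so no pair passed a threshold of 0.05.

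The pairs of CYP71B29 gave differences without overlap in 5 of 6 cases, all except the one with CYP71B26. Over all pairs of tested probe sets the share was 22.6%. CYP71B29 alone was already apart by 1.04 log2 units, so these pairs partly restate its own change and their count is read no further. None passed the threshold (adjusted p = 0.175 for each of the 5, from the exact permutation test). The log2 difference CYP71B6 minus CYP71B29 was 0.62 ± 0.24 on wild-type arrays and 2.36 ± 0.12 on mutant arrays (SD, n = 3), larger in the mutant by 1.73 ± 0.15 (SE). For CYP71B22 minus CYP71B29 the mutant mean was larger by 1.90 ± 0.37 and for CYP71B5 minus CYP71B29 by 1.46 ± 0.36. For the indole enzyme CYP71B6, the difference to CYP71B28 was larger in the mutant by 0.89 ± 0.15 and that to CYP71B34 by 0.81 ± 0.32, neither of which passed (adjusted p = 0.175 in the exact permutation test).

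The largest measured difference in change between 2 of the 7 paralogs was that of CYP71B22 and CYP71B26, which lie in neighbouring tandem arrays with 11 genes between them. CYP71B22 minus CYP71B26 was 3.26 ± 0.16 on wild-type arrays and 5.44 ± 0.53 on mutant arrays (log2, SD, n = 3), larger in the mutant by 2.19 ± 0.32 (SE, exact permutation p = 0.1, adjusted p = 0.175). The SD of this difference in the mutant is below the SD of CYP71B26 alone (0.95), since both genes were at their lowest on gtl1-1 mutant replicate 1 and at their highest on replicate 3. No difference was shown between CYP71B26 and CYP71B29, at -0.29 ± 0.60 (exact permutation p = 0.8), between CYP71B28 and CYP71B34, at -0.08 ± 0.37 (p = 0.8 in the same exact test), or between CYP71B6 and CYP71B22, at -0.16 ± 0.51 (p = 0.7 in the same exact test). These errors leave room for differences of either sign, and each of these 3 values turned sign when some single array was left out.

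**Figure D5:**
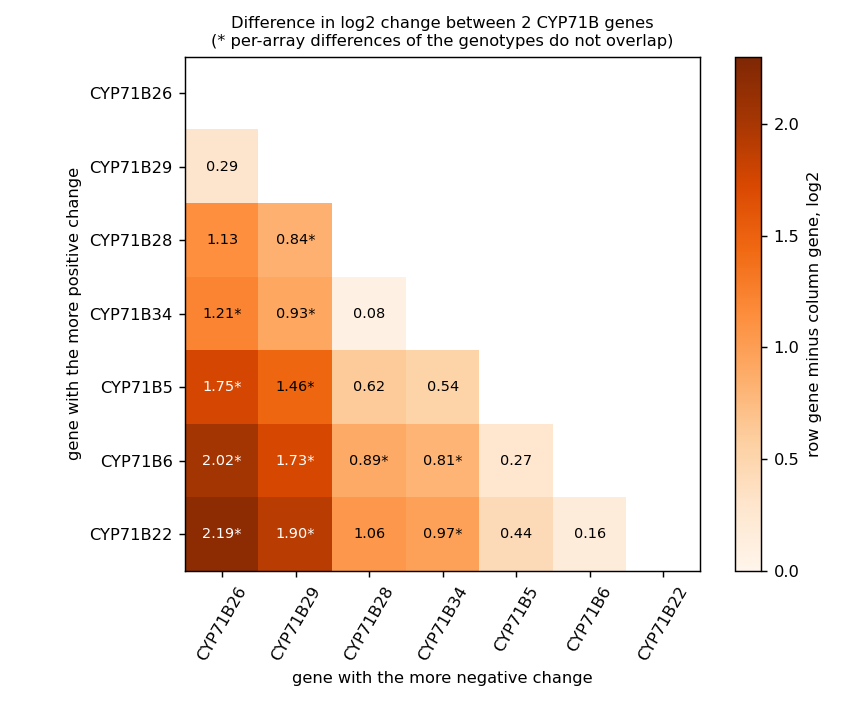
Difference in log2 change between 2 CYP71B genes, the gene of the row minus the gene of the column, for all 21 pairs of the 7 tested genes. Stars mark the 12 pairs whose per-array differences do not overlap between the genotypes, and the values run from 0.08 (CYP71B28 and CYP71B34) to 2.19 (CYP71B22 and CYP71B26).

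Markers of other cell types of the leaf were read beside these values. The light-harvesting genes LHCB4.1 and LHCB4.2 were lower on every mutant array than on any wild-type array, as CYP71B26, CYP71B28 and CYP71B29 were, with log2 changes of -0.39 ± 0.15 and -0.99 ± 0.26 (SE, n = 3 per genotype), neither called by limma (adjusted p = 0.295 and 0.171). The other 3 mesophyll markers with a probe set of their own, RCA, PRK and SBPASE, had changes of 0.01, 0.05 and 0.03 and overlapped. Over 4 of 9 stomatal markers the mean level was 5.30 to 6.36 in wild type and 5.47 to 6.23 in the mutant, and MUTE did not pass the filter. Of these, SPCH, of the stomatal lineage, was lower on every mutant array than on any wild-type array (-0.55 ± 0.27, SE), while FMA (0.21 ± 0.33) and the guard cell gene GC1 (0.67 ± 0.55) overlapped, and limma called 0 of the 3 tested (adjusted p = 0.397, 0.796 and 0.598). SWEET11, the 1 of 4 phloem markers with a probe set, ranged from 3.86 to 5.35 and from 4.88 to 5.43. The part of these cells in the CYP71B values was not tested.

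The genes whose pattern over the 6 arrays was most like that of each member were found by Pearson's r among the tested probe sets that name 1 other gene. They are a description of likeness only, since with 6 arrays and so many genes some r are high by chance. Nearest to CYP71B29 were AT5G37540 (r = 0.997) and AT2G02410 (r = 0.991), with log2 changes of -0.64 and -0.43. Nearest to its neighbour CYP71B28 were NGA2, a B3-type transcription factor (r = 0.998), and BZIP61, a bZIP transcription factor (r = 0.994), with changes of -0.81 and -1.31. Limma called 0 of these 4 genes (adjusted p = 0.065, 0.171, 0.161 and 0.175).

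CYP71B26 was most like AT3G52870 (r = 0.997) and AT5G35170 (r = 0.981), and CYP71B34 most like AT5G25475 (r = 0.989) and QQT2 (r = 0.977). CYP71B6 was most like AT1G53210 (r = 0.988) and AT4G13530 (r = 0.977). For CYP71B22 the nearest were AT1G03150 (r = 0.99) and AT3G15690 (r = 0.983), and for CYP71B5 they were AT2G04620 (r = 0.996) and AT5G37130 (r = 0.99). The 14 genes named for the 7 tested members were all different, but only 2 were taken per member. From 8 genes (for CYP71B22) to 38 (for CYP71B28) had an r over 0.95 with a member. Whether members share genes among these was not examined.

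Genes that work beside the subfamily were mostly out of reach, since the annotation gives few of them a probe set of their own. With 8730 probe sets unnamed, the others may still be on the array. Of 36 listed genes of camalexin, indole glucosinolate and indole nitrile metabolism, 1 had a probe set of its own, UGT74B1, the glucosyltransferase of glucosinolate synthesis. Its log2 values were 7.11, 7.30 and 7.70 in wild type and 7.22, 7.61 and 7.19 in the mutant, which overlapped, and its change of -0.03 ± 0.20 (SE, n = 3 per genotype; limma adjusted p = 0.96) turned positive without wild type replicate 3 and without gtl1-1 mutant replicates 1 or 3, and with array weights. Of 8 listed electron donors of P450 enzymes, the reductases and cytochromes b5, 0 had one. Other P450 genes were searched by a CYP symbol or by the words cytochrome P450 among a gene's synonyms. Outside CYP71B, this search found 5 with a probe set of their own, and 0 of these 5 passed the filter. P450 genes carried under other names would be missed. CYP79A2, CYP78A9, CYP718 and CYP51G2 read 2.14 on every array, and CYP84A4 read at most 2.42.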

How the data were processed

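RNA of trichomes from wild type and gtl1-1 mutant plants was hybridised to 6 Affymetrix arrays, grouped by the labels. The authors deposited 1 table of log2 values, and the submitters' processing notes name GCRMA for it. Its version and the log scale are not stated, and log2 was taken from the range of the values. Of 22810 probe sets, 64 controls were left out. Names came from the platform annotation (13513 probe sets name 1 gene, 503 several, 8730 are unnamed here), and the gene order from TAIR10.1, whose table holds 36 genes with a CYP71B symbol. Those without a single-gene probe set were not analysed here. Neither was 1 probe set that names several genes, at least 1 of them with a CYP71B symbol.

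Probe sets above the 40th percentile on at least 3 of the 6 arrays were fitted by genotype with limma 3.58.1 (lmFit, eBayes) in R 4.3.3, two-sided, and calls needed an adjusted p (Benjamini-Hochberg) under 0.05. Pairs of members were compared by exact permutation, which cannot give a p under 0.1. The SE of a difference in change comes from the SDs of the pair's differences in both genotypes. The SE of a member's own change is limma's, which draws on the variance of all tested probe sets, so these kinds of SE are not alike. There is no sequencing depth on arrays; the number of arrays limits the precision.

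The members and lists were chosen with earlier results of these data known. Named were all members, the 2 genes most like each tested member and the tested members of the indole and electron donor lists. Of the other P450 genes, the called or most changed were to be named. Since 0 of those found by symbol or synonym passed the filter, all 5 that were found are named. Deviations from the genotype means correlated at 0.127, 0.275 and 0.118 between arrays numbered 1, 2 and 3, all over 0.1. Crossed numbers gave -0.212 to 0.087. Deviations within a genotype sum to 0, so positive values at equal numbers push the crossed values down, and the crossed values are no separate support. The numbers may pair the arrays, which no label states. The main fit and the pair tests do not use the numbers, and the replicate block is an alternative. Alternatives were other filters, normalisations, variance models, array weights, a floor, the replicate block and leaving out each array.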

Additional observations from a re-analysis of the deposited data

How the results depend on the processing

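Limma's count of called probe sets, 126, was 228 at an adjusted p under 0.1, 8 with no filter, 68 with the replicate number as a block, and 31 to 81 with 1 array left out; 56 of the 68 were among the 126. CYP71B29 kept its direction in all 13 alternatives and its call in 9 (the range was -1.46 to -1.27 with 1 array left out, where 3 of 6 fits called it). Its groups do not overlap, so its sign could not turn with 1 array left out. The floor changed none of its values, so that fit, counted among the 9, repeats the main one. With no filter the change of CYP71B29 was the same -1.34, and the limma adjusted p was 0.101. Its SE was 0.13 there and 0.15 in the main fit. The unfiltered fit tested more probe sets and also estimated limma's variance model anew with the dim ones included. Which of these moved the adjusted p was not tested. The replicate block changed no call of a member, and sign flips within numbers gave the pairs of members an exact p of at least 0.25 (adjusted 0.35), where 3 pairs of arrays cannot go lower. The filter at the 60th percentile kept 3 of the 7 tested members and gives no value for CYP71B26, CYP71B28, CYP71B29 and CYP71B34. With 1 array left out, CYP71B5 ranged from -0.10 to 0.38 and UGT74B1 from -0.16 to 0.13, and UGT74B1 was 0.10 with array weights. The differences in change that turned sign with 1 array left out were CYP71B26 minus CYP71B29 (-0.72 to 0.27), CYP71B28 minus CYP71B34 (-0.35 to 0.19) and CYP71B6 minus CYP71B22 (-0.49 to 0.14). The causes were not tested. The other members kept their direction and stayed uncalled in every alternative that gave a value. The filters, the variance model, the replicate block and the floor leave a member's log2 change as it is, so these could not turn its sign. Nor could leaving out 1 array do so for CYP71B26 and CYP71B28, whose groups do not overlap. The other pairs kept their direction. Their side of the threshold was fixed in advance, since the exact permutation p cannot go under 0.1. Signals near the floor of 2.14 limit what can be said of the 12 dim members.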
